A study of Mus musculus with 18 samples.

Results

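The enzymes examined here were the tryptophan hydroxylases *Tph1* and *Tph2*, the aromatic amino acid decarboxylase *Ddc* and the arylalkylamine N-acetyltransferase *Aanat*, 4 of the 78239 genes in the count tables. They were chosen by name from the pathway that makes serotonin and melatonin, and the pathway itself was selected on the response of *Tph1* in the cell line. The contrast in the cells was therefore already used, and the values of the 4 genes in the cells are given as a description with no test. The level of *Tph1* in the retina also entered the choice. The contrast between AAV::*nsHif1a* and AAV::eGFP in the retina is not part of the rule and was tested, although the genes were chosen with earlier results of these data known.

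RNA came from mouse retinas and from 661W cells, a mouse line derived from a retinal tumour and used as photoreceptor-like cells. Retinas were taken 3 weeks after a subretinal injection, given at postnatal days 29 to 32, of an adeno-associated virus that carried either enhanced green fluorescent protein (AAV::eGFP, 5 libraries) or a normoxia-stable mouse *Hif1a* (AAV::*nsHif1a*, 5 libraries). The labels give the strain as C57BL/6J, whereas the study's methods name wild-type 129S6 mice, and the sources used here do not settle which is right. Both transgenes were driven by the rod-specific mouse opsin promoter. The study reported eGFP in the outer retina without overlap with a cone marker. It used eGFP as a stand-in, since nsHIF1A protein could not be located reliably in the tissue. The virus reached only part of each retina, so that a retinal library mixes transduced rods with untransduced rods and all other retinal cells. The 661W cells were collected 20 h after transfection with plasmids that expressed eGFP (4 libraries) or Myc-tagged *nsHif1a* (4 libraries) from the ubiquitous CMV promoter, in normoxia. The cells are 1 line, and nothing says that the 4 libraries of a group came from separate cultures, so that their spread may be technical.

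Serotonin is made from tryptophan. A tryptophan hydroxylase adds a hydroxyl group in the rate-limiting step, with tetrahydrobiopterin as cofactor, and Ddc removes the carboxyl group. Tph1 is the enzyme of the pineal gland, gut and mast cells, Tph2 that of serotonergic neurons, and Ddc also makes dopamine in the dopaminergic amacrine cells of the retina. Aanat acetylates serotonin at night and Asmt then methylates the product to melatonin, which in the pineal gland and in photoreceptors follows the circadian clock. C57BL/6J mice are known as a melatonin-deficient strain.

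All 4 genes were located on the GRCm39 assembly with the gencode M39 annotation. *Tph1* (ENSMUSG00000040046.16) lies on the minus strand of chromosome 7 from 46294065 to 46321965, and *Tph2* (ENSMUSG00000006764.9) on the minus strand of chromosome 10 from 114914546 to 115020927. *Ddc* (ENSMUSG00000020182.18) lies on the minus strand of chromosome 11 from 11762602 to 11848150 and is overlapped on the opposite strand by *1700042O10Rik*, which the strand-specific counting kept apart. *Aanat* (ENSMUSG00000020804.13) lies on the plus strand of chromosome 11 from 116477258 to 116488506. Of the 50-base words in the transcripts of *Ddc*, 1.05% occurred in other genes, as did 0.093% of those of *Tph1* and none of those of *Tph2* or *Aanat*, so that few reads could be shared with other genes.

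The bases upstream of the annotated starts of *Tph1* and *Tph2* are shown because the 2 hydroxylases differed in their response in the cells. *Tph1* has a canonical start at position 46316804 and another annotated start farther upstream at 46321965, and gene counts do not say which was used. Each window holds the 300 bases before the start, on the gene's own strand. Capitals mark matches, on either strand, to the HIF response element cores ACGTG and GCGTG, to the photoreceptor homeobox core TAATCC bound by Crx and Otx2, and to TGACG, which is one side of the cAMP response element.
Tph1, canonical start, chr7:46316805-46317104, minus strand: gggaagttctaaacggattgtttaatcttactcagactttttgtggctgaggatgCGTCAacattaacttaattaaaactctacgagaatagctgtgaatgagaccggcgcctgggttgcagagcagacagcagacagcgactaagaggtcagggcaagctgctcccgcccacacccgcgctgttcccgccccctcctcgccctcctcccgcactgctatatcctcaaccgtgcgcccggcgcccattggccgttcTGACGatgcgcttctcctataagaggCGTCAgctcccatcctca
Tph1, upstream start, chr7:46321966-46322265, minus strand: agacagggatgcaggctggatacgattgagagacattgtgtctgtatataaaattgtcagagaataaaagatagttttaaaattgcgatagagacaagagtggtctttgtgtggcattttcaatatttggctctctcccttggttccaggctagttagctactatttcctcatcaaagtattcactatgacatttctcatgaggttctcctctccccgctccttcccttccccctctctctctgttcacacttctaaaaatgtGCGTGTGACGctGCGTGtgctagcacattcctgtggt
Tph2, chr10:115020928-115021227, minus strand: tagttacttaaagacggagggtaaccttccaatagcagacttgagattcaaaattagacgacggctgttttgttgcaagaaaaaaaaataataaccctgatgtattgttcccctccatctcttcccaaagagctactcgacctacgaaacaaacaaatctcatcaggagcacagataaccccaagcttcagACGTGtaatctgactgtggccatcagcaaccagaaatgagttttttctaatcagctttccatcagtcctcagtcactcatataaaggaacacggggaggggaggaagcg

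The motifs were picked after the windows had been seen, and no match overlapped another. The canonical window of *Tph1* held 0 matches to ACGTG, 0 to GCGTG and 3 to TGACG. The upstream window of *Tph1* held 2 matches to GCGTG and 1 to TGACG. The window of *Tph2* held 1 match to ACGTG, that of *Ddc* 1 match to GCGTG, and that of *Aanat* 2 matches to TAATCC and 1 to TGACG. Among 21769 windows of the same length before the canonical starts of protein-coding genes, 19.7% held ACGTG, 33.9% GCGTG, 8.8% TAATCC and 19.9% TGACG. An upstream window was taken for *Tph1* alone, whereas the other enzymes and the background had 1 window per gene, so that *Tph1* had more room for matches. A match is a description of the letters in these windows.

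Retinal libraries held 12898220 to 16167522 counts and cell libraries 13424326 to 17809585. At these depths 3 counts correspond to between 0.186 and 0.233 CPM (counts scaled to a common library size) in the retina and to between 0.168 and 0.223 CPM in the cells, a floor that covers counting error only. *Xist*, the X inactivation transcript, had 1 to 3 counts in AAV::eGFP retinas 3, 4 and 5 and 19492 to 28595 in the other 7 retinas. Genes of the Y chromosome had 2701 to 3509 counts in these 3 retinas and 0 in the other 7. By these counts all AAV::*nsHif1a* retinas were female and the AAV::eGFP group was mixed, so that the retinal contrast is unbalanced by sex. In the cells, replicates 1 and 2 stood apart from replicates 3 and 4: within a group the median difference between libraries was 1.47 to 1.59 times the sampling noise inside these pairs and 3.62 to 8.32 times across them. Of 8 HIF target controls, *Hif1a* itself left out, 8 were called upregulated in the retina and 6 in the cells (5 with replicate numbers as blocks), where calls are defined below. The log2 fold change of *Hif1a* RNA was 0.05 (standard error 0.04, adjusted *p* = 0.504, limma) in the retina. In the cells it was 3.26 (standard error 0.13, adjusted *p* = 1.18e-05, limma), so that the change of *Hif1a* RNA was not alike in the 2 experiments. The 661W libraries had 0 to 2 counts of *Crx*, a photoreceptor transcription factor, against at least 10610 in each retina. The 7 cone markers summed to between 2.03 and 4.71 CPM in the cells, against at least 782 CPM in each retina. The 10 rod markers summed to between 13.4 and 18.5 CPM in the cells against at least 38757 CPM in each retina. *Otx2*, another photoreceptor transcription factor, had 335 to 608 counts in the cells.

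*Tph1* was the member that separated the groups in the cells. The eGFP libraries 1 to 4 held 1, 1, 1 and 0 counts of *Tph1*, and the *nsHif1a* libraries held 28, 38, 48 and 29. Every *nsHif1a* library lay far above every eGFP library, in both replicate sets. After scaling of library sizes by the TMM method the level was 0.0459 ± 0.0307 CPM (SD, n = 4) with eGFP and 2.19 ± 0.636 CPM (SD, n = 4) with *nsHif1a*. Summed over libraries, 3 counts stood against 143, a ratio per total count of 44.7 with an exact 95% interval from 15 to 219. The ratio was 32.7 (8.70 to 276) over replicates 1 and 2 and 68.5 (11.9 to 2739) over replicates 3 and 4. These intervals describe counting error only and are no test, and the ratio rests on 3 counts in the control cells. The fitted log2 fold change (log2FC) of *Tph1* in the cells was 4.87, a value that depends on how the fit treats counts of 0 and 1. In the cells 13.6% of all 15962 tested genes had groups that did not overlap, and 1.21% were called upregulated and 0.0626% downregulated, which is given for *Tph1* as background only, since it was chosen on this contrast. In total 203 genes were called in the cells, and 107 with replicate numbers as blocks.

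**Figure D1:**
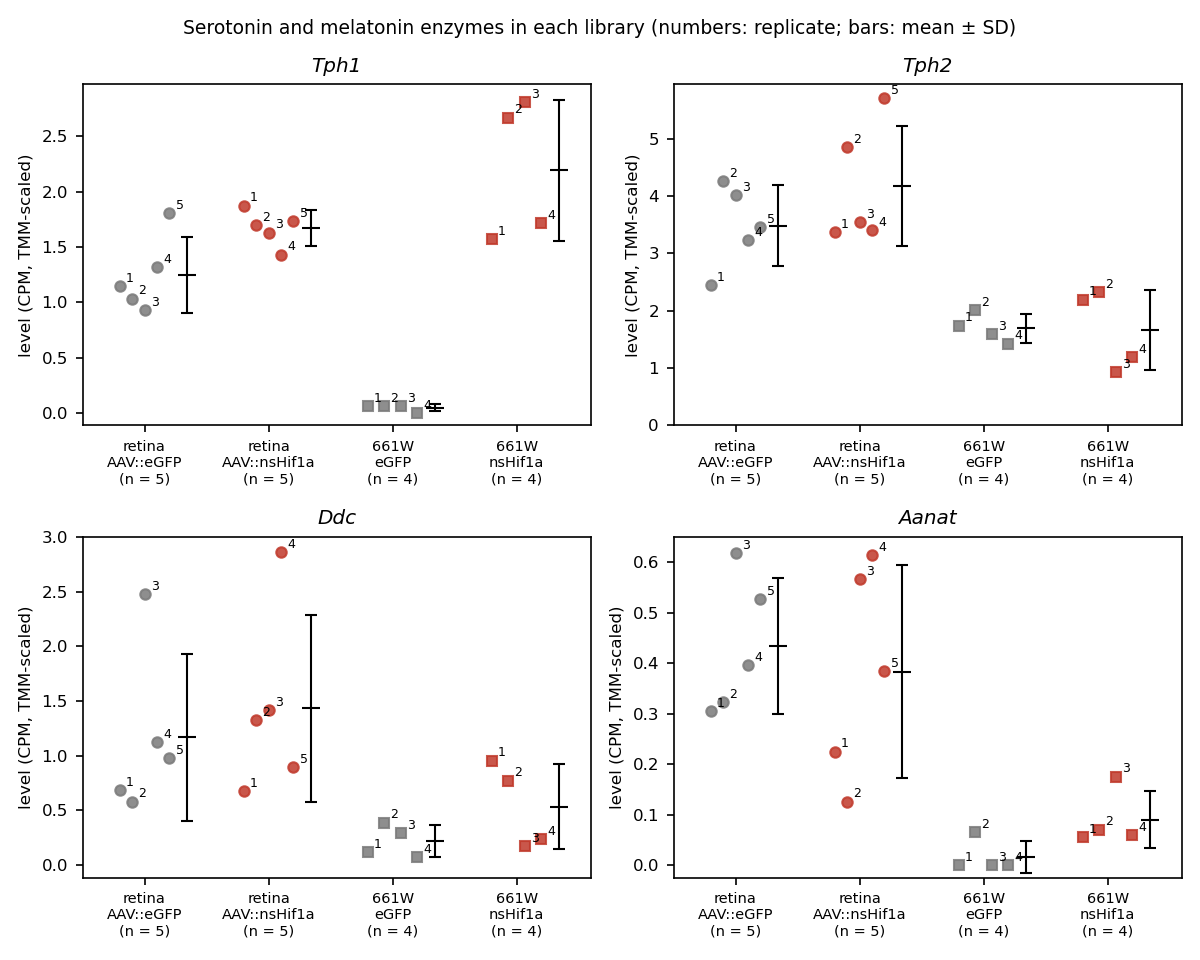
Level of the 4 enzymes in each library, in CPM after TMM scaling on a linear axis, for retinas (circles) and 661W cells (squares) with eGFP (grey) or *nsHif1a* (red); numbers are replicates and black bars the mean ± SD. *Tph1* is near 0 in the control cells and between 1.58 and 2.81 CPM with *nsHif1a*, whereas the retinal groups overlap for all 4 genes.

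The level of *Tph1* reached in the cells was of the order of its level in the retina. *Tph1* counts were 15, 16, 15, 20 and 24 in the AAV::eGFP retinas and 25, 27, 23, 21 and 27 in the AAV::*nsHif1a* retinas. In CPM the highest AAV::eGFP retina (1.81 CPM) lay above 4 of the 5 AAV::*nsHif1a* retinas, so the groups overlapped. By mean level the order was *nsHif1a* cells (2.19 CPM), AAV::*nsHif1a* retina (1.67 ± 0.162 CPM, SD, n = 5), AAV::eGFP retina (1.25 ± 0.345 CPM, SD, n = 5) and eGFP cells (0.0459 CPM). The ranges of the first 3 groups overlapped, at 1.58 to 2.81, 1.43 to 1.87 and 0.928 to 1.81 CPM, and the eGFP cells lay below all of them at 0.0648 CPM or less. The retinal and cell tables were scaled separately, so these levels are set side by side without a test.

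In the retina, *Tph1* was not called. The test was that of limma after voom with quality weights per library. A gene was called when its *p*-value, adjusted by Benjamini-Hochberg over the 18859 genes tested, was under 0.05 and its log2FC was beyond 0.5 in either direction. By this rule 1.08% of tested genes were upregulated and 0.912% downregulated. The log2FC of *Tph1* was 0.39 (standard error (SE) 0.20, 95% interval -0.05 to 0.83), with an adjusted *p* of 0.288 from limma. All 5 AAV::*nsHif1a* retinas lay above the AAV::eGFP mean. A two-sided exact permutation test on the CPM of this single gene gave *p* = 0.0476, with 0.00794 the smallest value that 5 against 5 libraries allow, and this value is not corrected for the 4 enzymes examined. The ratio of summed counts was 1.34 (1.01 to 1.78) in the retina, against 44.7 in the cells. This interval covers counting error only, leaves out differences between retinas and is no test. Among the 7 retinas with *Xist* counts the log2FC was 0.60 (adjusted *p* = 0.275, limma).

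*Tph2*, the neuronal hydroxylase, was the most abundant of the 4 enzymes per length in every group. *Tph2* counts were 32, 66, 65, 49 and 46 in the AAV::eGFP retinas and 45, 77, 50, 50 and 89 in the AAV::*nsHif1a* retinas. The groups overlapped over most of their range. The level was 3.49 ± 0.714 CPM (SD, n = 5) and 4.18 ± 1.05 CPM (SD, n = 5), and the log2FC of 0.27 (SE 0.18) had an adjusted *p* of 0.426 from limma. In the cells, *Tph2* had 29, 31, 27 and 19 counts with eGFP and 39, 33, 16 and 20 with *nsHif1a*. By CPM, the 2 highest and the 2 lowest libraries both belonged to the *nsHif1a* group, the high ones being replicates 1 and 2. The ratio of summed counts in the cells was 0.956 over all libraries, 1.19 over replicates 1 and 2 and 0.696 over replicates 3 and 4. The fitted log2FC of *Tph2* in the cells was -0.09, and it ranged from -0.59 to 0.36 when single libraries were left out.

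*Ddc*, which makes serotonin and dopamine from the hydroxylated amino acids, varied more between retinas than between groups. *Ddc* counts were 9, 9, 40, 17 and 13 in the AAV::eGFP retinas and 9, 21, 20, 42 and 14 in the AAV::*nsHif1a* retinas. One library in each group, AAV::eGFP 3 and AAV::*nsHif1a* 4, stood high, and the groups overlapped. The level was 1.17 ± 0.762 CPM (SD, n = 5) against 1.44 ± 0.854 CPM (SD, n = 5), with a log2FC of 0.35 (SE 0.39, adjusted *p* = 0.647, limma). Among the 7 retinas with *Xist* counts the log2FC of *Ddc* was 1.03 (adjusted *p* = 0.372), and leaving out single libraries gave 0.15 (without AAV::*nsHif1a* replicate 4) to 0.65 (without AAV::eGFP replicate 3). In the cells the eGFP libraries had 2, 6, 5 and 1 counts of *Ddc* and the *nsHif1a* libraries 17, 11, 3 and 4, and *Ddc* did not pass the filter on low counts. The high values were those of *nsHif1a* replicates 1 and 2, whereas replicates 3 and 4 lay within the eGFP range. The ratio of summed counts was 2.35 over all libraries, 3.47 over replicates 1 and 2 and 1.04 over replicates 3 and 4.

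*Aanat*, the acetyltransferase that sets the nightly rhythm of melatonin, was at the edge of detection. *Aanat* counts were 4, 5, 10, 6 and 7 in the AAV::eGFP retinas and 3, 2, 8, 9 and 6 in the AAV::*nsHif1a* retinas. The groups overlapped, and *Aanat* did not pass the filter, so that 3 of the 4 enzymes were tested in the retina and 0 were called. In the fit without a filter its log2FC was -0.34 (95% interval -1.27 to 0.58, adjusted *p* = 0.740, limma). In the cells *Aanat* had 0, 1, 0 and 0 counts with eGFP and 1, 1, 3 and 1 with *nsHif1a*, a ratio of summed counts of 5.63 (0.683 to 259). All 8 cell libraries lay at or below the floor of 3 counts. *Asmt*, the enzyme of the last step, had 0 counts in all 10 retinas and in the 4 eGFP cell libraries and 1, 2, 1 and 1 in the *nsHif1a* cell libraries. These values lie below the floor, and no difference in *Asmt* was detectable at this depth.

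Levels of different genes were compared per length, as RPKM, which is CPM divided by the kilobases of annotated exons. By this measure the order in the AAV::eGFP retina was *Tph2* at 1.21 ± 0.248 RPKM, *Aanat* at 0.261 ± 0.0812, *Tph1* at 0.200 ± 0.0553 and *Ddc* at 0.113 ± 0.0739 RPKM (SD, n = 5 each). *Tph2* lay above the other 3 enzymes in every retina, whereas the ranges of *Aanat*, *Tph1* and *Ddc* overlapped one another. With the longest transcript as the length, *Tph1* came to 0.273 and *Ddc* to 0.233 RPKM. In the eGFP cells *Tph2* was at 0.587 ± 0.0862 RPKM and the other 3 were at 0.0213 RPKM or less. In the *nsHif1a* cells *Tph1* came next to *Tph2*, at 0.352 ± 0.102 RPKM beside 0.576 ± 0.243 RPKM for *Tph2* (SD, n = 4 each), and their ranges overlapped.

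The levels of *Ddc* and *Aanat* in the retinas followed the markers of the retinal pigment epithelium (RPE), the pigmented layer behind the photoreceptors that can adhere to a dissected retina. The summed CPM of 8 RPE markers was 75.0, 58.9, 734, 318 and 231 in the AAV::eGFP retinas and 73.0, 54.5, 394, 869 and 192 in the AAV::*nsHif1a* retinas. These sums varied widely within both groups, and 0 of the 7 tested RPE markers were called. Over the 10 retinas, Pearson's r between *Ddc* CPM and the log2 of this sum was 0.81 (permutation *p* = 0.00312, adjusted 0.00624) and Spearman's rank correlation was 0.75 (permutation *p* = 0.0174, adjusted 0.0347). For *Aanat*, r was 0.92 (permutation *p* = 0.0002, adjusted 0.0008) and Spearman's rank correlation was 0.94 (permutation *p* = 0.00022, adjusted 0.00088). The adjustment is over the 4 relations computed, which were chosen after the values had been seen. Without the 2 libraries farthest from the median of the sum, r was 0.88 for *Ddc* and 0.89 for *Aanat*. Within the 7 retinas with *Xist* counts, r was 0.82 and 0.93. The relation of *Aanat* rests on 2 to 10 counts per library. *Aanat* stood at 0.126 to 0.323 CPM in retinas 1 and 2 of both groups and at 0.385 to 0.619 CPM in the others. *Ddc* was not fully split in this way, with 1.32 CPM in AAV::*nsHif1a* retina 2 and 0.898 CPM in retina 5. The permutations treat the 10 retinas as exchangeable. For *Aanat*, a relation to the marker sum and a difference between these sets of retinas cannot be told apart.

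**Figure D2:**
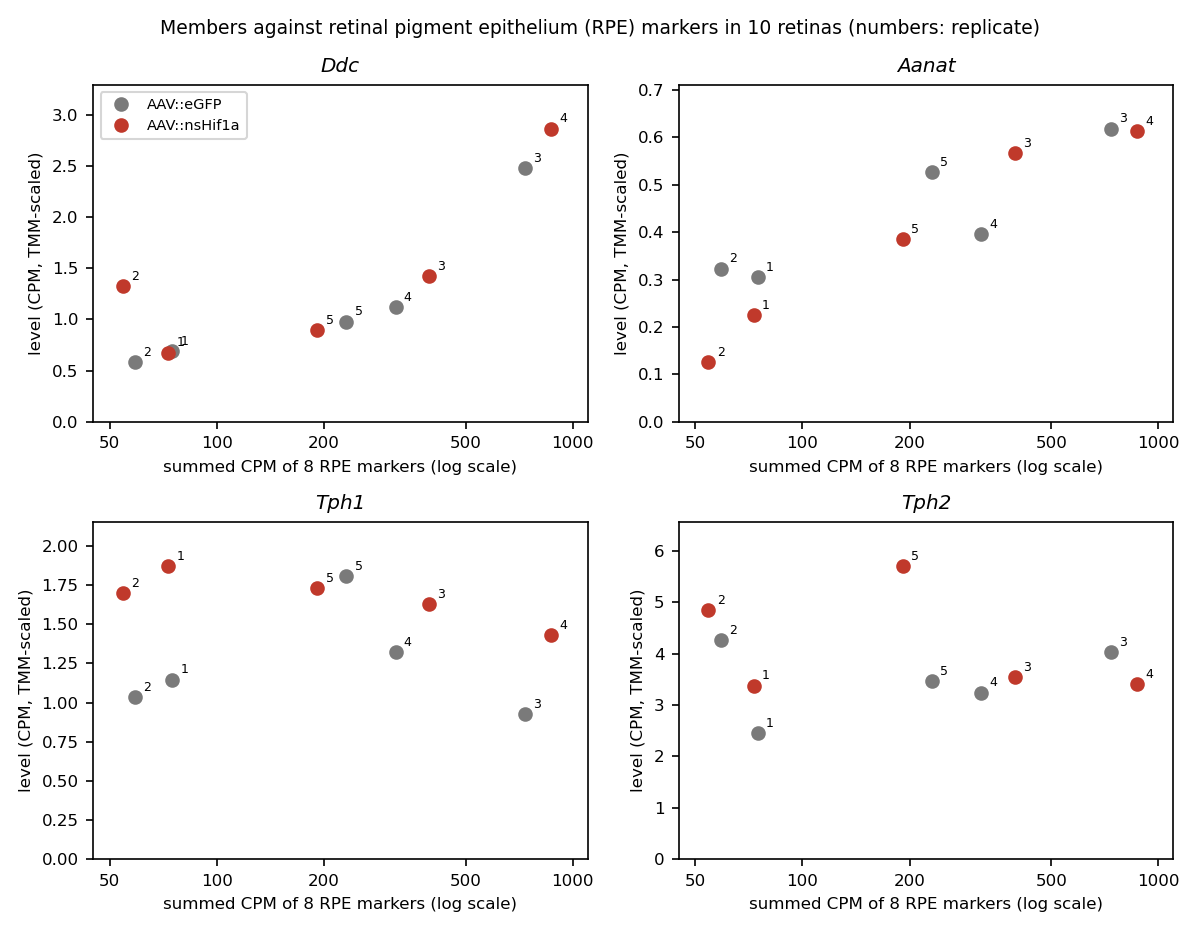
Level of each enzyme (CPM, linear axis) against the summed CPM of 8 RPE markers (log axis) in the 10 retinas, with AAV::eGFP in grey and AAV::*nsHif1a* in red; numbers are replicates. *Ddc* and *Aanat* are highest in AAV::eGFP retina 3 and AAV::*nsHif1a* retina 4, which have the highest marker sums, whereas *Tph1* and *Tph2* show no such order.

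For *Tph1* and *Tph2* the same relation had an r of -0.17 (permutation *p* = 0.626, adjusted 0.760) and -0.12 (permutation *p* = 0.760, adjusted 0.760). Spearman's rank correlation was -0.25 (permutation *p* = 0.492) and -0.24 (permutation *p* = 0.516), both with an adjusted value of 0.516. Without the 2 farthest libraries r was -0.09 and 0.15. When the log2 marker sum was entered as a covariate, which was decided on with the values in view, the log2FC was 0.41 for *Tph1* (adjusted *p* = 0.271), 0.27 for *Tph2* (adjusted *p* = 0.446) and 0.31 for *Ddc* (adjusted *p* = 0.547, all from limma), and none of the 3 was called. In bulk tissue fewer cells of a type and less RNA per cell cannot be told apart, and the part of the RPE in the levels of *Ddc* and *Aanat* was not tested.

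Markers of other cells that could carry these enzymes or enter the samples were examined beside them. *Cpa3*, a mast cell protease, had 0 counts in the AAV::eGFP retinas, between 0 and 5 in the AAV::*nsHif1a* retinas and 0 in all 8 cell libraries. The 9 mast cell markers summed to between 9.63 and 13 CPM in the 10 retinas, mostly from *Kit*, which is not specific to mast cells. In the cells the mast cell sum was 21.3 to 64.4 CPM with eGFP and 17.4 to 61.1 CPM with *nsHif1a*, and the tryptase *Tpsab1* had 161 to 1051 counts with overlapping groups. The 9 markers of dopaminergic and other amacrine cells summed to between 1072 and 1199 CPM in the AAV::eGFP retinas and between 1089 and 1187 CPM in the AAV::*nsHif1a* retinas, and 0 were called there. Little of this sum came from the markers of the dopaminergic cells, which express *Ddc*. In the AAV::eGFP retinas the mean was 5.10 CPM for *Th*, 0.326 CPM for *Slc6a3* and 8.74 CPM for *Slc18a2*. In the cells 2 of these 9 markers were tested, and the glycine transporter *Slc6a9* was called upregulated (log2FC 0.91, adjusted *p* = 0.0215), a call that was lost with replicate numbers as blocks (adjusted *p* = 0.0630). The 7 cone markers summed to between 829 and 1010 CPM and between 782 and 934 CPM in the same groups. The 10 rod markers summed to between 49482 and 54650 CPM with AAV::eGFP and between 38757 and 51571 CPM with AAV::*nsHif1a*, and all 10 were lower by sign, with a median log2FC of -0.21 and 0 called. The 6 lens γ-crystallins, from the tissue in front of the retina, summed to between 634 and 2817 CPM with AAV::eGFP and between 920 and 18956 CPM with AAV::*nsHif1a*. Their part in the retinal values of the 4 enzymes was not tested.

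The other genes of the pathway were followed through 7 lists with 64 genes. In the retina 44 of them were tested, 0 were called in either direction (beside 1.08% of all tested genes upregulated and 0.912% downregulated), and 2 (4.55%) had groups that did not overlap, beside 5.94% of all tested genes. Their median log2FC was -0.01, against 0.00 over all genes tested. In the cells 32 were tested, 2 (6.25%) were called upregulated and 0 downregulated, beside 1.21% and 0.0626% of all tested genes, and 4 (12.5%) had groups that did not overlap, beside 13.6% of all tested genes. Their median log2FC in the cells was -0.03, against 0.00 over all genes. A further 15 of the 64 genes had 0 counts in all 8 cell libraries. The difference between the effects in retina and cells was tested by an interaction term over all 18 libraries, which called 1 of 46 pathway genes at an adjusted *p* under 0.05, beside 2.33% of the 20999 genes tested.

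**Figure D3:**
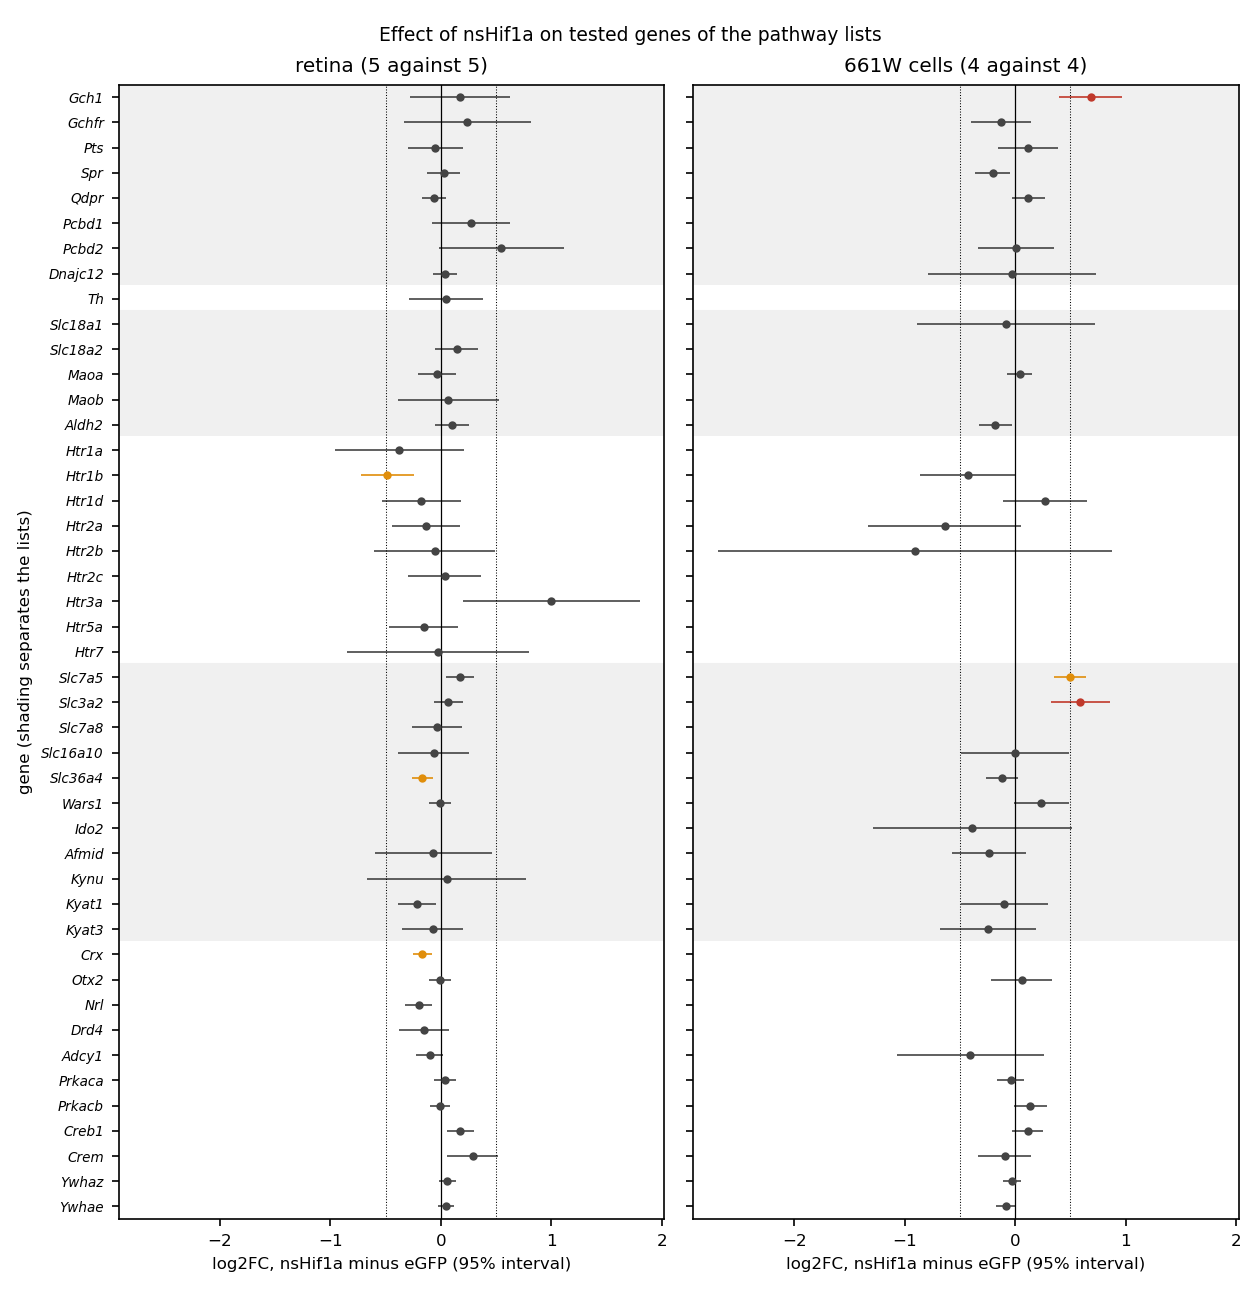
Log2FC (nsHif1a minus eGFP) with 95% intervals for tested genes of the 7 pathway lists in retina (left) and 661W cells (right); red marks called genes, orange an adjusted *p* under 0.05 without a log2FC beyond the dotted lines at 0.5, and shading separates lists. *Gch1* and *Slc3a2* are called in the cells, and no gene is called in the retina.

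Tetrahydrobiopterin, which every tryptophan hydroxylase needs, is made by an enzyme chain that starts with GTP cyclohydrolase 1 (*Gch1*). *Gch1* had 174, 183, 239 and 214 counts in the eGFP cells and 359, 305, 373 and 333 in the *nsHif1a* cells. All *nsHif1a* libraries lay above all eGFP libraries, and the log2FC was 0.68 (SE 0.13, adjusted *p* = 0.0294, limma). With replicate numbers as blocks the adjusted *p* was 0.0609 (log2FC 0.64), and without eGFP replicate 1 or 2 it was 0.0600 or 0.0798, so that *Gch1* was then not called. With the replicate sets (1 and 2 against 3 and 4) as a covariate, with edgeR and with DESeq2 it was called upregulated, as was *Slc3a2*. In the retina AAV::eGFP libraries had only 17 to 24 counts of *Gch1* and AAV::*nsHif1a* libraries 20 to 35, and its log2FC was 0.18 (SE 0.21, adjusted *p* = 0.673). The difference between the effects was -0.52 (SE 0.28, adjusted *p* = 0.362), so that a difference between retina and cells was not shown.

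The other 7 genes of the cofactor list were not called in either experiment. The most abundant in the retina were *Pcbd1*, which recycles the cofactor, at 10.3 ± 1.58 RPKM and *Qdpr*, the dihydropteridine reductase, at 9.19 ± 0.425 RPKM in the AAV::eGFP group (SD, n = 5). Their log2FC was 0.27 (adjusted *p* = 0.355) and -0.06 (adjusted *p* = 0.499). *Pcbd1* had 0 counts in all 8 cell libraries, which allows a level of up to 0.223 CPM. In the cells the most abundant were *Gchfr*, the feedback regulator of Gch1, at 15.3 ± 2.35 RPKM and *Spr*, sepiapterin reductase, at 9.12 ± 0.674 RPKM (SD, n = 4), with a log2FC of -0.12 (adjusted *p* = 0.599) and -0.20 (adjusted *p* = 0.149).

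Tryptophan enters cells through the large neutral amino acid transporter formed by *Slc7a5* and its heavy chain *Slc3a2*. *Slc3a2* stood at 186, 184, 245 and 251 CPM in the eGFP cells and at 324, 315, 326 and 330 CPM in the *nsHif1a* cells. The *nsHif1a* libraries were alike, whereas the eGFP libraries split between replicates 1 and 2 and replicates 3 and 4. The log2FC was 0.59 (SE 0.12, adjusted *p* = 0.0384, limma), and it was 0.57 (adjusted *p* = 0.0302) with the replicate block. Without eGFP replicate 1 or 2 the log2FC was 0.45 and the adjusted *p* 0.0689 or 0.0657, and *Slc3a2* was then not called. In the retina it was 143 CPM in the AAV::eGFP group, with a log2FC of 0.07 (SE 0.06, adjusted *p* = 0.558). *Slc3a2* was the 1 pathway gene whose effect differed between retina and cells, by -0.54 (SE 0.13, adjusted *p* = 0.0328).

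*Slc7a5* stood at 219, 222, 241 and 236 CPM in the eGFP cells and at 346, 352, 291 and 306 CPM in the *nsHif1a* cells. The groups did not overlap, and the adjusted *p* was 0.00613, but the log2FC of 0.4996 (SE 0.06) fell just short of the threshold. In the retina the log2FC of *Slc7a5* was 0.18 (SE 0.06, adjusted *p* = 0.0987), and the difference between the effects was -0.29 (SE 0.09, adjusted *p* = 0.0767). The list of tryptophan uptake and use also held the enzymes of the kynurenine branch, which degrade tryptophan. Of this list *Slc3a2* was the 1 gene called among 9 tested in the cells, and 0 of 10 were called in the retina. Over all tested genes 1.21% were called upregulated in the cells and 1.08% in the retina. *Slc36a4*, a lysosomal and plasma membrane amino acid transporter, had a log2FC of -0.17 (SE 0.04, adjusted *p* = 0.0423) in the retina, under the fold threshold.

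**Figure D4:**
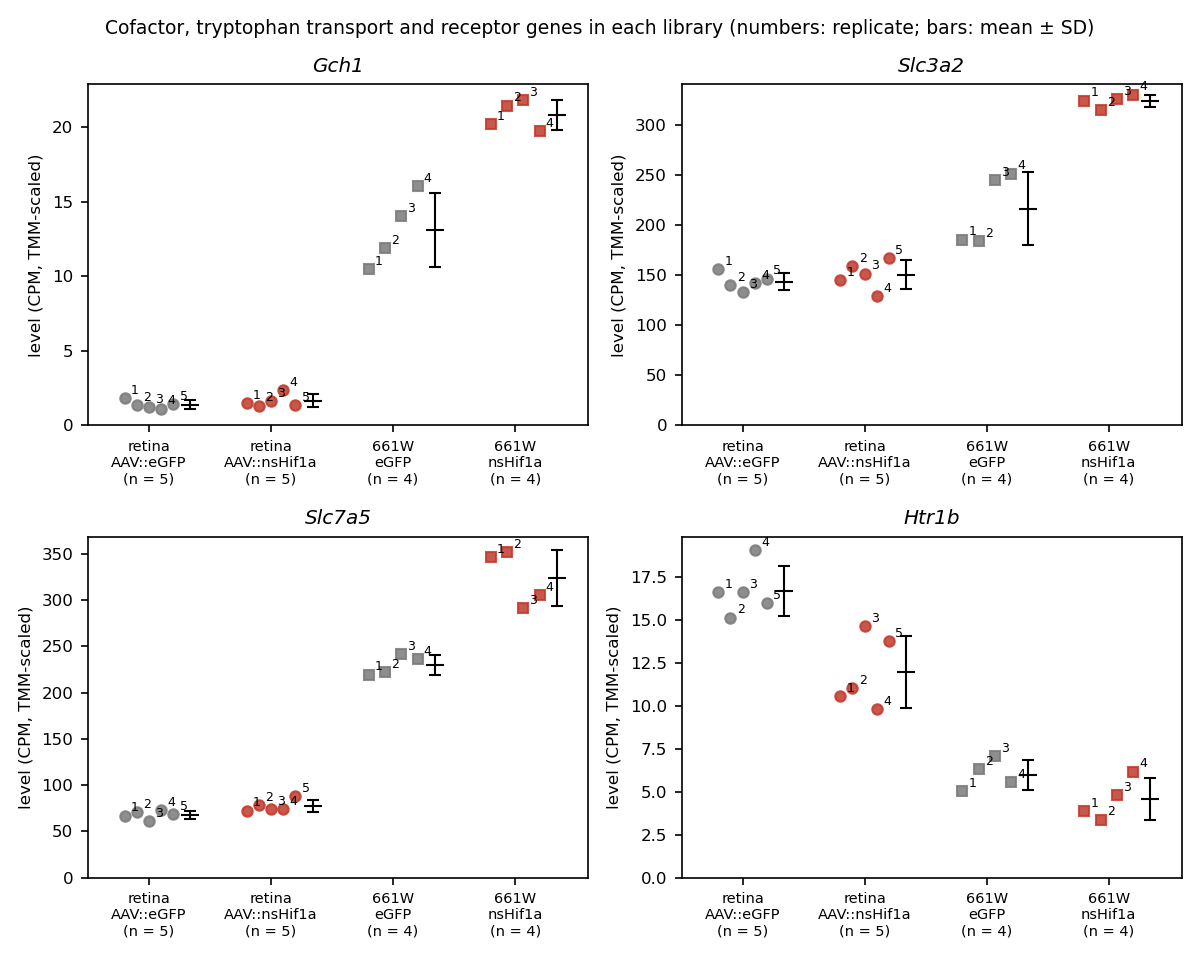
Level of *Gch1*, *Slc3a2*, *Slc7a5* and *Htr1b* in each library (CPM, linear axes from 0), with retinas as circles and 661W cells as squares, eGFP in grey and *nsHif1a* in red; numbers are replicates and black bars the mean ± SD. In the cells all *nsHif1a* libraries lie above all eGFP libraries for the first 3 genes, and for *Htr1b* the retinal groups do not overlap.

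Of the 14 serotonin receptors, 9 were tested in the retina and 4 in the cells, and 0 were called. *Htr1b*, an inhibitory receptor found on nerve terminals, stood at 16.6, 15.1, 16.6, 19 and 16 CPM in the AAV::eGFP retinas and at 10.6, 11, 14.6, 9.82 and 13.7 CPM in the AAV::*nsHif1a* retinas. All AAV::*nsHif1a* retinas lay below all AAV::eGFP retinas, and the log2FC of -0.48 (SE 0.11, adjusted *p* = 0.0233, limma) stayed just inside the fold threshold. In the cells its log2FC was -0.43 (SE 0.19, adjusted *p* = 0.252). *Htr1d* came next in the retina, at 1.17 ± 0.238 RPKM (SD, n = 5), with a log2FC of -0.17 (adjusted *p* = 0.582). *Htr2b* was the most abundant in the cells, at 1.53 ± 0.730 RPKM (SD, n = 4), with a log2FC of -0.91 and an SE of 0.79 (adjusted *p* = 0.556).

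*Htr3a*, the serotonin-gated ion channel, had the largest log2FC of the tested pathway genes in the retina and was named after its values were seen. *Htr3a* counts were 12, 20, 44, 23 and 9 in the AAV::eGFP retinas and 20, 29, 39, 66 and 49 in the AAV::*nsHif1a* retinas. The groups overlapped, and the log2FC of 1.0 (SE 0.37) had an adjusted *p* of 0.137. With the RPE marker sum as a covariate the adjusted *p* was 0.0484 (log2FC 1.01), and *Htr3a* was then called.

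Of the 7 genes that carry, store and break down monoamines, 4 were tested in the retina and 3 in the cells, and 0 were called. *Maoa*, a mitochondrial monoamine oxidase, was at 4.12 ± 0.238 RPKM in the AAV::eGFP retina and 17.2 ± 0.474 RPKM in the eGFP cells, with a log2FC of -0.03 (adjusted *p* = 0.840) and 0.04 (adjusted *p* = 0.685). *Aldh2*, the aldehyde dehydrogenase that follows it, had a log2FC of 0.10 (adjusted *p* = 0.449) in the retina and -0.18 (adjusted *p* = 0.178) in the cells. Of 4 other pterin-dependent hydroxylases and catecholamine enzymes, 2 were tested in the retina and 1 in the cells, and 0 were called. *Th*, the hydroxylase of dopamine synthesis, was at 0.716 ± 0.114 RPKM in the AAV::eGFP retina, with a log2FC of 0.05 (adjusted *p* = 0.889), and had 0 counts in all 8 cell libraries. *Dbh*, which turns dopamine into noradrenaline, did not pass the filter in either experiment.

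None of the 4 genes of the melatonin step and its receptors passed the filter in either experiment. The melatonin receptor *Mtnr1a* had 5 to 7 counts in the AAV::eGFP retinas and 4 to 12 in the AAV::*nsHif1a* retinas and 0 in the cells. *Gpr50*, a related receptor, had 1 to 8 and 0 to 10 counts in the retinal groups.

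Among 11 regulators of *Aanat* and the hydroxylases, 0 were called. *Crx*, whose product binds the *Aanat* promoter in photoreceptors, was at 881 ± 19.4 CPM with AAV::eGFP and 792 ± 43.7 CPM with AAV::*nsHif1a* (SD, n = 5), a log2FC of -0.17 (SE 0.04, adjusted *p* = 0.0266) under the fold threshold, beside a median of -0.21 for the rod markers. *Nrl*, a rod transcription factor that is also in the rod list, had a log2FC of -0.20 (SE 0.06, adjusted *p* = 0.0566). *Otx2* had a log2FC of -0.01 (adjusted *p* = 0.957) in the retina and 0.06 (adjusted *p* = 0.823) in the cells, where it had 335 to 608 counts. The 14-3-3 genes *Ywhae* and *Ywhaz*, whose products stabilise Aanat, were the most abundant of the list in the cells and had a log2FC of -0.08 (adjusted *p* = 0.262) and -0.03 (adjusted *p* = 0.724) there.

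Of the 12 clock genes given beside *Aanat*, *Ciart* and *Per2* were called upregulated in the retina (16.7%, beside 1.08% of all tested genes) and *Ciart* in the cells (8.33%, beside 1.21%). In the retina 5 of the 12 had an adjusted *p* under 0.05, which were *Ciart*, *Per1*, *Per2*, *Cry1* and *Cry2*. *Ciart*, a repressor of the clock, had 143, 134, 76, 87 and 61 counts in the AAV::eGFP retinas and 190, 275, 189, 236 and 353 in the AAV::*nsHif1a* retinas, a log2FC of 1.35 (SE 0.22, adjusted *p* = 0.00394). In the cells its log2FC was 2.07 (SE 0.15, adjusted *p* = 0.000246). *Per2*, another clock repressor, had a log2FC of 0.55 (SE 0.11, adjusted *p* = 0.0105) in the retina and 0.37 (SE 0.21, adjusted *p* = 0.349) in the cells. *Ciart* and *Per2* were lowest in AAV::eGFP retinas 3, 4 and 5, which had 1 to 3 *Xist* counts. *Ciart* stood there at 4.70, 5.75 and 4.59 CPM, beside 10.9 and 8.66 CPM in AAV::eGFP retinas 1 and 2. With AAV::*nsHif1a* it stood at 13.4 to 22.6 CPM. *Per2* stood at 25.9, 25.4 and 25.5 CPM, beside 30.6 and 34.8 CPM, and at 33.7 to 46.0 CPM with AAV::*nsHif1a*. The *Xist* class was a covariate in an alternative fit over all genes, but its part in the calls of *Ciart* and *Per2* was not examined. The labels give no time of day, and the part of sampling time in the levels of *Aanat* and the clock genes was not tested.

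The genes whose pattern was most like that of *Tph1* over the 8 cell libraries were *Dipk2a* (Pearson's r of log2 CPM 0.992), *Stc2* (0.990), *Bnip3* (0.988), *Tmem45a* (0.987) and *Kdm4b* (0.985), among 15960 genes. Over the 10 retinas the closest genes to *Tph1* were *2310022B05Rik* (0.925), *Flot1* (0.904), *Klhl26* (0.900), *Tle6* (0.894) and *Eif3c* (0.879), among 18856 genes, none of which was among the 5 of the cells. For *Tph2* in the retina they were *Gm20186* (0.952), *Bbx* (0.928), *Jade3* (0.923), *Cenpx* (0.916) and *Npas3* (0.912). For *Ddc* they were *Tshr* (0.959), *Gpc3* (0.946), *Hsdl2* (0.926), *Kpna1* (0.922) and *Tlcd4* (0.922). These correlations are descriptions over libraries that share depth and group, in the cells mainly the contrast that chose *Tph1*, and they were picked as the highest among all genes that passed the filter.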

How the data were processed

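Gene counts of 10 mouse retinas and 8 libraries of 661W cells were analysed, grouped by their labels. The authors made stranded libraries, aligned paired-end reads to GRCm39 with Rsubread, counted them by strand with featureCounts on the basic gencode M36 annotation, and deposited raw counts per gene. With strand-specific counting, overlapping genes on opposite strands are kept apart. Names and positions came from gencode M39, which held 78168 of 78239 gene identifiers.

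The counts were filtered with filterByExpr at a minimum count of 10, TMM factors were computed in edgeR 4.0.16, and voomWithQualityWeights values were fitted in limma 3.58.1 under R 4.3.3, as the study's methods state in other versions. Log2 CPM used a prior count of 2. Count ratios carry exact conditional 95% intervals, which cover counting error only. The procedure was tested on simulated counts. Depth was 12898220 to 17809585 counts per library.

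The 4 enzymes and all gene lists were chosen with earlier results of these data known. Genes were named by a rule, which took the enzymes, pathway genes called and the 5 genes closest to an enzyme's pattern. The rule also took the 2 most abundant genes of each pathway list in control retinas and control cells. *Htr3a*, *Slc36a4* and *Otx2* were named outside this rule, as were genes of the marker, clock and HIF target lists. The main fits held no replicate term, and the replicate numbers of the labels entered as blocks only in an alternative fit. Same-numbered cell libraries deviated together (r = 0.238, 0.227, 0.259 and 0.269). Libraries of other numbers in the same replicate set (1 and 2, or 3 and 4) correlated as highly (0.246 to 0.287), so that pairs cannot be told apart from sets. For same-numbered retinas r ranged from -0.15 to 0.14. DESeq2 1.42.0, the quasi-likelihood test of edgeR, other weights, size factors and filters, the replicate block, covariates and leaving out each library were tried as alternatives. Some genes of the lists are counted but not reported here by name.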

Additional observations from a re-analysis of the deposited data

Results flagged for a closer look

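Among the 39 groups of libraries examined for a single library that stands apart (Dixon's rule at 95%, which flags about 1 in 20 groups by chance), 6 values stood out. *Ddc* was at 2.48 CPM in AAV::eGFP retina 3, the highest of 5, which is also the AAV::eGFP retina with the highest sum of RPE markers. *Crx* was at 848 CPM in AAV::eGFP retina 2, the lowest of 5. In the 661W cells, *Aanat* was at 0.0648 CPM in eGFP replicate 2 and at 0.175 CPM in *nsHif1a* replicate 3, each the highest of 4, *Crx* was at 0.120 CPM in eGFP replicate 1, the highest of 4, and *Tph1* was at 0 CPM in eGFP replicate 4, the lowest of 4. The values in the cells come from 0 to 3 counts.

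The effect of *nsHif1a* on *Slc3a2* differed between retina and cells by -0.54 on the log2 scale (adjusted *p* = 0.0328 for the interaction term in limma), being smaller in the retina. This is 1 of 46 pathway genes, beside 2.33% of all genes tested, and the effect in the cells was 0.45 and not called without eGFP replicate 1 or 2.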

How the results depend on the processing

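The log2FC of *Tph1*, *Tph2* and *Ddc* in the retina stayed positive and uncalled under every alternative that kept the gene. It ranged from 0.31 to 0.60 for *Tph1* (adjusted *p* 0.128 to 0.467), from 0.15 to 0.37 for *Tph2* (0.341 to 0.715) and from 0.15 to 1.03 for *Ddc* (0.353 to 0.860). *Tph1* and *Ddc* did not pass a minimum count of 30. In the cells the log2FC of *Tph1* was 5.30 with edgeR and 5.51 with DESeq2, and 4.52 to 5.09 when single libraries were left out.

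Over all genes in the retina 375 were called, against 200 with the replicate block, 221 with the *Xist* class as a covariate and 140 in the libraries with *Xist* counts alone. Leaving out single libraries gave 219 to 528, with 219 without AAV::eGFP replicate 4 and 243 without replicate 5. In the cells 203 were called, against 366 with DESeq2, 107 with the replicate block and 592 with the replicate sets as a covariate. Leaving out single libraries gave 84 to 1878, with 84 and 89 without eGFP replicates 1 and 2 and 1878 and 1876 without *nsHif1a* replicates 3 and 4.

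Of the pathway genes 0 were called in the retina, against 1 (*Htr3a*) with the RPE covariate, chosen after the data were seen, and 0 to 1 when single libraries were left out, where *Htr1b* was called downregulated without AAV::eGFP replicate 2 or AAV::*nsHif1a* replicate 3 or 5. In the cells 2 were called, 1 (*Slc3a2*) with the replicate block and 0 to 7 when single libraries were left out, with 0 without eGFP replicate 1 or 2 and 7 without *nsHif1a* replicate 3 or 4. Beside these and the calls of *Slc6a9* and *Ankrd37* in the cells, no listed gene called in the main fit lost its call with the replicate block. Calls gained with the block were not examined for listed genes outside the pathway lists. The cause of these shifts was not tested. The interaction called 1 pathway gene with the replicate block and without quality weights. With the longest transcript as length, *Tph1* in the control retina was at 0.273 RPKM. The limit set by depth is 3 counts, which *Aanat* exceeded in most retinas and *Asmt* in no library.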
